A study of Homo sapiens with 8 samples.

Results

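Distal peaks of histone H3 lysine 9 acetylation (H3K9ac) that were present both with and without butyrate were examined in KGN cells, an established line from a human ovarian granulosa cell tumour. A peak entered the set when its merged control interval overlapped a butyrate interval by at least 1 bp and its middle lay more than 10 kb from the closest gene start in the authors' annotation. The set held 2308 of the 22215 control H3K9ac peaks on chromosomes 1 to 22 and X, or 10.4%. It was selected on the measured peaks themselves, so its presence in both lists is part of its definition and not a result. The study's 8 samples were KGN cells at passages 5-8, grown with no butyrate (Control) or with 1 mM butyrate for 6 h, and each condition gave an H3K9ac, an H4K16ac, an IgG and an input library. Input was not analysed here. Every condition and antibody had 1 library and all cells were 1 line, so no difference between conditions could be tested and no p-value is given. The question put by the design was how butyrate alters the 2 acetylation marks.

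H3K9ac is placed on nucleosomes by acetyltransferases of the GCN5 and PCAF type and removed by histone deacetylases. It is known mainly from the promoters of active genes and is also found at active enhancers, the distal elements that act on a promoter from a distance. Butyrate, a short-chain fatty acid, inhibits class I and class IIa deacetylases. Granulosa cells surround the oocyte, respond to follicle-stimulating hormone and make oestradiol, and KGN cells are used as a model of them.

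The word distal held for only part of the set. Of the 2236 peaks on chromosomes that had RefSeq start sites for comparison, 278 covered a RefSeq start (12.4%, exact 95% interval 11.1 to 13.9) and 396 more lay within 1 kb of one. Together these were 674 peaks, or 30.1% (28.2 to 32.1). A further 316 lay 1 to 10 kb away, and 1246 (55.7%, 53.6 to 57.8) were over 10 kb from every RefSeq start used and so were distal by both annotations. These intervals cover the counting of peaks only. Of the 278 peaks on a RefSeq start, 247 covered the start of a protein-coding gene and 31 that of a long noncoding RNA only. In 225 cases the gene was also named in the authors' columns, but with its start elsewhere.

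The strongest peaks over a RefSeq start show what this means. Below are the 150 bases upstream of the RefSeq start under 6 of them, those with the highest control −log10 q, printed 5′ to 3′ on the strand of the gene from RefSeq (GRCh38.p14). Capitals mark the GC box GGGCGG, the CCAAT box CCAAT, the ETS site CCGGAAG and their reverse complements. The EIF3B window is chr7:2354677-2354826 on the plus strand, TASOR is chr3:56683238-56683387 on the minus strand and CLPTM1L is chr5:1345100-1345249 on the minus strand. SHMT1 is chr17:18363551-18363700 on the minus strand, RMND5B is chr5:178130864-178131013 on the plus strand and ZNF487 is chr10:43436961-43437110 on the plus strand, upstream of 1 of its several starts.
EIF3B: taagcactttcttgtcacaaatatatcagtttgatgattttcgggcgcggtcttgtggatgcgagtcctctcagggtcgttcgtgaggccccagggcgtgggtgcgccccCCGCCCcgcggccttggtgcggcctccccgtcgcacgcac
TASOR: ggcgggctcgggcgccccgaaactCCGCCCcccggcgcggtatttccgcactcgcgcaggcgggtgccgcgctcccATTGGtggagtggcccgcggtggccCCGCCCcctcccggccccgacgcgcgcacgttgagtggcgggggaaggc
CLPTM1L: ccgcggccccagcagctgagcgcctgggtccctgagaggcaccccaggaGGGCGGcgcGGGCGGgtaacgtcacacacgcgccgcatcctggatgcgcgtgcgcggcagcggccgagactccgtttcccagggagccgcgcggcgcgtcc
SHMT1: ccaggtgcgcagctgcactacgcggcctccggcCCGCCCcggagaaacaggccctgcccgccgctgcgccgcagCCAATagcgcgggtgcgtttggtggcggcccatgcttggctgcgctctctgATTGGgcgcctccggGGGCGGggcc
RMND5B: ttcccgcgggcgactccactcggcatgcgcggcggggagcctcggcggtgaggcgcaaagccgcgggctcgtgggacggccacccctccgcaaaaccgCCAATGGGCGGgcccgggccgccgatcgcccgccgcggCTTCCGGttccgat
ZNF487: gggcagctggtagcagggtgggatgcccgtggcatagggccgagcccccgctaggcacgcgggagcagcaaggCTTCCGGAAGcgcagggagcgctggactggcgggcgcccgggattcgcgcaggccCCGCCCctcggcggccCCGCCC

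All 6 windows are rich in CG dinucleotides, from 15 in EIF3B to 26 in RMND5B over 150 bases, and each holds at least 1 GC box. For ZNF487 this depends on the start chosen: the window chr10:43436698-43436847 under the same peak has 15 CG dinucleotides and no marked motif. TASOR, SHMT1 and RMND5B also hold CCAAT boxes, and RMND5B and ZNF487 hold ETS sites. EIF3B encodes a subunit of translation initiation factor 3, and its start in the authors' columns lies 18291 bp downstream of the RefSeq start. TASOR, a subunit of the HUSH silencing complex, is offset by 18906 bp, CLPTM1L by 13255 bp, and RMND5B, a ubiquitin ligase component, by 10658 bp. SHMT1, the cytosolic serine hydroxymethyltransferase of folate metabolism, is offset by 30111 bp, so that the closest gene given for its peak is EVPLL.

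The RefSeq starts under the set resembled those under peaks that the authors' annotation also puts near a start. Over the 250 bases upstream, the median number of CG dinucleotides was 24 under the 346 RefSeq starts covered by the distal set, 23 under 7942 starts covered by kept peaks near a start, and 11 under all 34789 promoters. A GC box on either strand was found in 72.3%, 68.8% and 42.6% of these groups, an ETS site in 15%, 17.3% and 8.48%, and a TATA box (TATAAA) in 2.89%, 4.0% and 10.8%. A CCAAT box was found in 21.1%, 27.7% and 32.0%. An E-box (CACGTG) was found in 8.09%, 8.60% and 6.33%, an AP-1 site (TGACTCA) in 3.18%, 2.12% and 4.19%, a TEAD site (GGAATG) in 8.38%, 9.09% and 11.9%, and a cyclic AMP response element (TGACGTCA) in 1.73%, 2.63% and 1.64%. Motifs may overlap each other, and a match is a description of the letters only. No sequence is shown for peaks distal by both annotations, since no genome was used here.

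**Figure D1:**
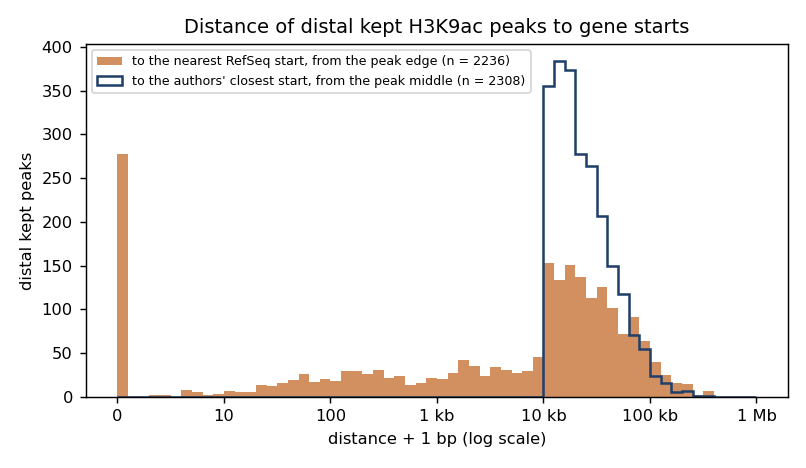
Number of distal kept H3K9ac peaks (y axis) by distance to the closest gene start (x axis, distance plus 1 bp, log scale), from RefSeq starts (filled) and from the authors' starts (line). The line begins at 10 kb by the selection, while 278 peaks stand at a RefSeq distance of 0 and 674 lie on or within 1 kb of a RefSeq start.

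The position by RefSeq starts split the set into peaks of different size. In control, the median width was 1238 bp for peaks on a RefSeq start, 564 bp within 1 kb, 374 bp at 1 to 10 kb and 404 bp beyond 10 kb, with 464 bp over the whole set. Kept peaks near an authors' start had a median of 778 bp, and those of them on a RefSeq start 1356 bp. The authors' fold enrichment, the summit pileup over the local background, had a median of 6.63 on RefSeq starts and 4.02 beyond 10 kb. Median −log10 q was 13.2 and 4.62. In pileup, the number of fragments stacked at the summit, the medians were 27 and 17. The 5696 kept peaks that lie near an authors' start and on a RefSeq start had a median fold of 6.69, next to the 6.63 of the distal set on RefSeq starts. The 328 distal control peaks that had no butyrate peak were weaker still, with a median width of 287 bp and a fold of 3.48, and 5 of the 322 that could be placed lay on a RefSeq start.

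Over the authors' distances, the set ranged from 10012 to 378652 bp, with a median of 20680 bp (quartiles 14406 and 34188). There were 299 peaks beyond 50 kb and 55 beyond 100 kb. By the selection limit, a 282 bp peak upstream of PROC, the gene of the anticoagulant protein C, was just inside at 10012 bp. It had a fold of 4.0 in control and 4.73 with butyrate. Just outside were a 1096 bp peak downstream of the TMEM184B start at 9997 bp, with folds of 5.39 and 4.31, and chr17:79813199-79813726 at 9990 bp, with folds of 4.0 and 5.77.

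In the authors' feature columns, 929 of the peaks (40.3%) lay in introns, 262 of all peaks in a first intron, 36 in exons, and 1307 (56.6%) outside every annotated gene. In all, 43.4% (41.3 to 45.4) had a host gene in these columns, against 79.5% (78.9 to 80.1) of kept peaks near a start, and both shares take in peaks whose feature within that entry reads Intergenic, 5 in the set and 971 near a start. Among the peaks distal by both annotations the share with a host gene was 50.5% (47.7 to 53.3). Upstream of the closest start lay 51.1% of the set and 33.1% of kept peaks near a start. As a share of each chromosome's control peaks, the set ran from 6.67% on chromosome 12 to 16.9% on chromosome 21.

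With butyrate, most of these regions carried a wider peak. The butyrate H3K9ac list was longer as a whole, with 79356 peaks against 22215 in control. Its library was also deeper, at 29.4 M implied reads against 24.3 M for an assumed genome of 2.70 Gb. The shortest deposited peak was 251 bp with butyrate and 232 bp in control. The part of these differences in the widths and overlaps was not tested. The share of all control peaks that overlapped a butyrate peak was 92.4%, and the 2308 peaks were 87.6% (86.2 to 88.8) of the 2636 distal control peaks. The selection used this overlap and nothing is read from it. The median butyrate width was 1406 bp, summed over the butyrate peaks where a control peak overlapped 2 or more (113 peaks). The median ratio of butyrate to control width was 2.33. The ratio was at least 2 in 1329 peaks (57.6%), beside a background of 44.4% of all kept peaks and 42.7% of kept peaks near a start. The control peak lay wholly inside 1 butyrate peak in 1489 cases (64.5%), against 54.2% near a start. The control summit and the nearest butyrate summit were a median of 67 bp apart, and 63.8% were within 100 bp. Several control peaks could share 1 butyrate peak: 306 butyrate peaks each joined 2 or more of the set, 671 peaks in all, and 1 joined 7. Among the 1619 peaks whose butyrate peak overlapped no other control peak, the median width ratio was 1.88.

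Fold enrichment moved in both directions. Median fold was 4.26 in control and 5.34 with butyrate, with a median ratio of 1.16. Butyrate fold was at least 1.5 times the control fold in 581 peaks (25.2%), beside 19.8% of all kept peaks, and control fold was at least 1.5 times the butyrate fold in 140 (6.07%), beside 9.41%. Fold was higher with butyrate in 1507 peaks, 65.3%, but pileup scaled to each library's genome-wide background was higher in 55.9%, and the scaled pileup at the butyrate summit nearest the control summit was higher in 44.9%. For kept peaks near a start the 3 shares were 55.2%, 41.5% and 30.6%. For peaks on RefSeq starts they were 40.6%, 30.2% and 20.1%, and for those distal by both annotations 70.0%, 61.2% and 49.9%. The direction for the set as a whole therefore depended on the scale. All such values are relative to each library's own background and carry no absolute level.

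**Figure D2:**
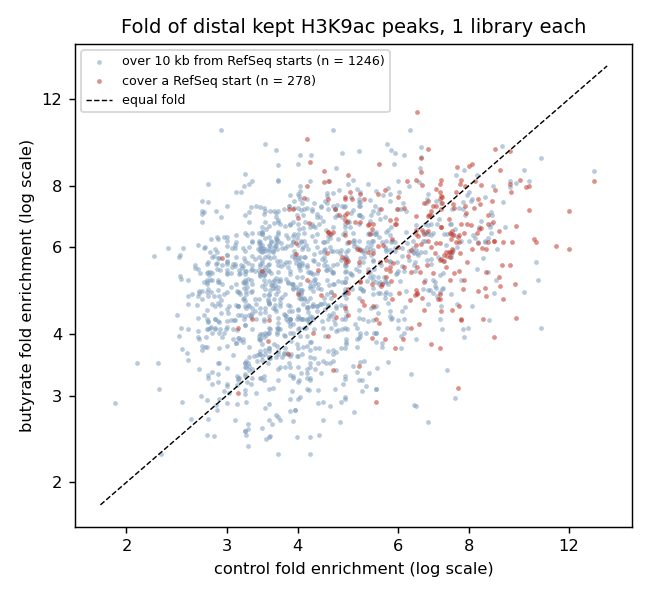
Authors' fold enrichment with butyrate (y axis, log scale) against control (x axis, log scale), 1 point per distal kept H3K9ac peak, for peaks covering a RefSeq start (red) and those over 10 kb from every RefSeq start (blue). Most blue points lie above the dashed line of equal fold (70.0%) and most red points below it (40.6% above).

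The ratios followed the strength of the control peak, and at equal strength the distal set and the kept peaks near a start had like values. For control −log10 q from 1.3 to 3, the median fold ratio was 1.51 in the distal set (n = 503) and 1.65 near a start (n = 2177). From 3 to 6 it was 1.3 and 1.34, and from 6 to 10 it was 1.11 and 1.13. From 10 to 20 the values were 0.880 and 0.904, and at 20 and over 0.745 (n = 85) and 0.725 (n = 1734). Width ratios fell over the same 5 steps from 3.39 to 1.39 in the distal set and from 3.79 to 1.28 near a start. The widest gap in width ratio was at a −log10 q of 6 to 10, with 2.30 in the set, 2.60 for those distal by both annotations and 1.85 near a start. The control strength is itself part of both ratios, and its part in them was not tested.

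**Figure D3:**
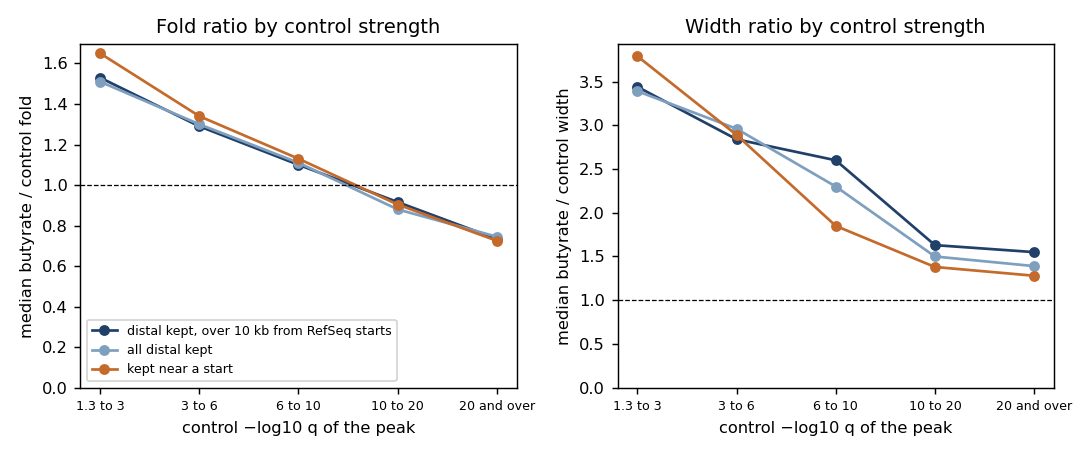
Median butyrate to control ratio of fold (left) and of width (right) in 5 steps of control −log10 q (x axis), for peaks over 10 kb from RefSeq starts, for the whole distal set and for kept peaks near a start. The 3 fold ratio lines run close together, from 1.51 to 1.65 in the weakest step down to between 0.725 and 0.745 in the strongest.

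At the strong end, peaks on RefSeq starts and peaks far from them stood side by side. The highest control folds belonged to the TASOR peak and to chrX:3842368-3843655, each at 13.3 with a pileup of 40. With butyrate they had 8.19 and 8.58, and pileups of 35 and 31. The X peak is 1288 bp wide, lies in intron 6 of a gene given only by identifier (ENSG00000285756) and is 182881 bp from the closest RefSeq start. The ZNF487 and SHMT1 peaks went from a fold of 12 each to 7.11 and 5.94, the EIF3B peak from 11.4 to 6.03, and the RMND5B peak from 9.66 to 5.06. A 2525 bp peak 10644 bp upstream of AP2S1, a clathrin adaptor subunit, had nearly equal folds of 11.8 and 11.3. All of these strong control peaks had a lower fold with butyrate, beside 801 of the 2308 peaks of the set. They were chosen for a high control fold or q, so nothing is read from this direction. The median fold ratio of the set at a control −log10 q of 20 and over was 0.745. Other strong peaks distal by both annotations were chosen after their values were seen. They lay upstream of PSD4, a guanine nucleotide exchange factor (10.7 and 9.10), in intron 6 of the sphingomyelin synthase gene SGMS1 (10.6 and 5.14) and at chr2:130797697-130798139 (10.5 and 5.59).

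Of the 6 highest butyrate folds, 4 were in regions with 2 or more peaks of the set under 1 butyrate peak. Downstream of CDKN2C, which encodes the cyclin-dependent kinase inhibitor p18, a 253 bp control peak and a 4739 bp control peak had folds of 4.17 and 8.33. They overlapped the same butyrate peak, 4348 bp wide, with a fold of 12.3. A 295 bp peak near AP2S1 with a control fold of 3.96 lay under the same butyrate peak, with a fold of 11.3, as its strong neighbour. Another was chr18:11947509-11948336, which covers the start of LOC101927511 and had folds of 6.48 and 11.3. A 1305 bp peak at chrX:107675480-107676784, 39724 bp from the RefSeq start of TSC22D3, a glucocorticoid-induced gene, had 4.62 in control and 10.4 with butyrate.

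The widest peak spanned 6593 bp at chr4:24323632-24330224, held 16 summits and was 7831 bp wide with butyrate. Its fold was 10.2 in control and 8.18 with butyrate. It lies 143 kb from a RefSeq start of PPARGC1A, the gene of the coactivator PGC-1 alpha, and 7 peaks of the set fell within 200 kb of that start. Next in width were peaks over the RefSeq starts of PLOD2, a collagen lysyl hydroxylase (5516 bp, folds 6.16 and 7.21), and ANP32A, a phosphatase inhibitor and histone-binding protein (4956 bp, 7.0 and 7.27). Others were in intron 12 of VRK2, a kinase gene (5367 bp, 7.46 and 7.17), at chr11:12674467-12679360 (4894 bp, 7.93 and 7.65) and at chr16:85553089-85557916, 25686 bp from the start of GSE1-AS1 (4828 bp, 8.29 and 6.15). Widths of these 6 with butyrate ran from 0.790 to 1.5 times control, below the median ratio of the set. They were chosen for a wide control peak, which is the divisor of this ratio, so nothing is read from its low value. Few peaks were of this size: 23 of the set (0.997%) exceeded 3 kb, against 2.17% of kept peaks near a start.

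H4K16ac, which is deposited mainly by the acetyltransferase KAT8, was not used to choose the peaks. The names inside these deposited lists carry k12 where lysine 16 would be expected, so H4K16ac here means the libraries with that label. Of the set, 462 peaks overlapped a control H4K16ac peak, 20% (18.4 to 21.7), beside a background of 17.0% over all control H3K9ac peaks. The share was 23.1% (20.8 to 25.6) for the 1246 peaks distal by both annotations and 17.2% (16.7 to 17.8) for kept peaks near a start. It was 10.7% (7.55 to 14.5) for distal control peaks without a butyrate peak and 10.8% (10.4 to 11.2) for distal butyrate peaks without a control peak. The intervals count peaks of 1 library, and peaks near each other are not independent.

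The higher share beyond 10 kb of a RefSeq start was also seen at equal width and at equal strength. Within a 400 bp window at the strongest summit, 19.7% (17.6 to 22.1) of peaks distal by both annotations and 11.0% (10.6 to 11.5) of kept peaks near a start overlapped control H4K16ac. In the 5 steps of control H3K9ac strength the window shares were 20.2%, 19.1%, 20.4%, 16.3% and 36.4% for the former and 11.7%, 10.0%, 7.71%, 11.6% and 17.5% for the latter. At 20 and over the former held 33 peaks. Neighbouring peaks of 1 library are not independent, so the intervals do not test the difference between the groups. With H4K16ac peaks limited to a q of 0.05 or less, the whole-peak shares were 15.1% and 9.59%. The 2170 kept peaks that are near a start by the authors' columns and over 10 kb from RefSeq starts had a window share of 11.5% (10.2 to 12.9). Local H3K9ac background moved with the overlap: among peaks distal by both annotations, its median was 3.48 fragments in the 288 with a control H4K16ac peak and 3.09 in the 958 without. For kept peaks near a start it was 3.67 and 3.33. Its part in the overlap was not tested. The median H3K9ac fold ratio of peaks distal by both annotations was 1.20 both with and without H4K16ac.

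**Figure D4:**
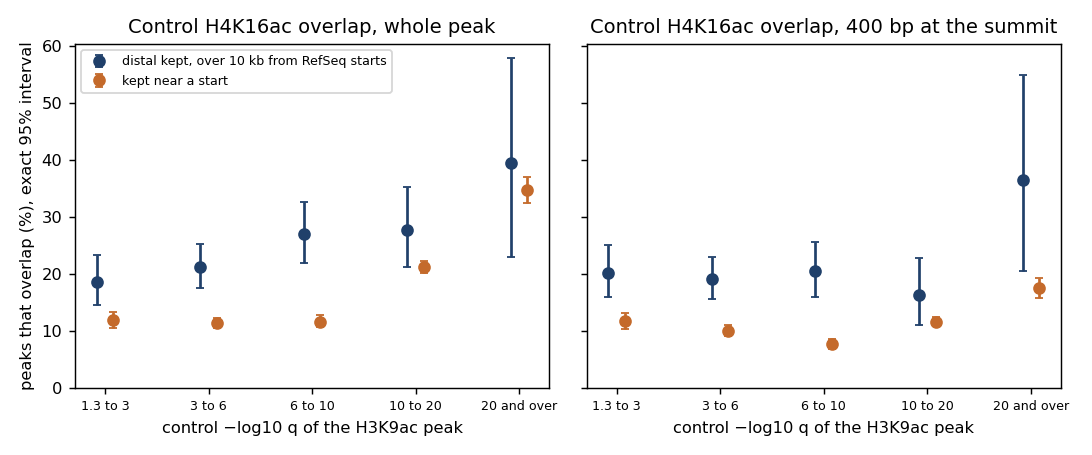
Percent of H3K9ac peaks that overlap a control H4K16ac peak (y axis, bars are exact 95% intervals for counting) by control −log10 q of the H3K9ac peak (x axis), for the whole peak (left) and a 400 bp summit window (right). The window shares of peaks over 10 kb from RefSeq starts run from 16.3% to 36.4%, and those of kept peaks near a start from 7.71% to 17.5%.

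The overlap with butyrate H4K16ac was smaller. Of the set, 50 peaks (2.17%, 1.61 to 2.85) overlapped a butyrate H4K16ac peak, near the background of 2.43%, and the share was 4.89% (4.63 to 5.17) for distal butyrate peaks without a control peak. The butyrate H4K16ac list is shorter, with 33752 peaks against 73586 in control, and at a q of 0.05 or less 2 peaks of the set (0.0867%) remained. H4K16ac was found in both conditions at 22 peaks, in control alone at 440, with butyrate alone at 28 and in neither at 1818. The 22 included the CLPTM1L peak (H3K9ac fold 7.53 and 5.31), a 2979 bp peak over the RefSeq start of GTF2IRD1, a transcription factor gene (10.2 and 8.00), a 3446 bp peak over a start of TRIOBP, an actin-binding protein (10.2 and 7.13), and chr21:43348094-43350750 (7.03 and 4.78). The IgG lists held 5 and 2 peaks, and 0 of the set overlapped either.

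Neighbouring peaks formed groups. With gaps of at most 12.5 kb, the set fell into 1505 groups, of which 1013 were single peaks and 177 held 3 or more. These 177 took in 665 peaks, or 28.8%. Over the whole set, single peaks included, a mean of 3.38 butyrate peaks without a control peak lay within 10 kb, against 2.67 for kept peaks near a start and 2.29 for distal control peaks without a butyrate peak.

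The largest group was in SLC7A5, the gene of the amino acid transporter LAT1. It held 10 control peaks between chr16:87847039 and 87860197, with folds from 2.37 to 4.84 and a summed width of 7927 bp. With butyrate, 2 peaks of 13298 and 17487 bp covered them all, with folds of 5.97 and 6.90, and the latter ran past the RefSeq start of SLC7A5. The 4 largest width ratios among peaks of at least 400 bp were here, from 20.5 to 29.5. Each of these ratios sets a whole shared butyrate peak against 1 of the control peaks under it. Summed over the group, the width was 30785 bp with butyrate and 7927 bp in control. Control peaks outside the set also lay under the wider butyrate peak. No peak of this group overlapped H4K16ac in either condition.

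The next groups differed in their H4K16ac. At chr16:85360782 to 85376845, near LOC101928502, 8 control peaks had folds of 2.78 to 5.64 and the strongest butyrate peaks over them 4.98 to 8.06, with 6 butyrate peaks over the region, and 2 of the 8 overlapped control H4K16ac. In SYNPO, the gene of the actin-associated protein synaptopodin, 8 peaks had 2.83 to 5.53 and 5.39 to 8.84. All 8 lay within 10 kb of a RefSeq start, 1 of them 58 bp from a start of SYNPO, while the authors' closest start for some was that of MYOZ3. In the next group, KRT80, a keratin gene, was the authors' closest gene for only some peaks, at 36537 and 39104 bp. The closest RefSeq start was that of SMIM41-AS1, 24743 bp or more away. The 7 peaks of this group had 3.0 to 7.49 and 3.78 to 5.93, and 5 overlapped control H4K16ac. In CIC, the gene of a transcriptional repressor, 7 peaks had 3.36 to 8.77 and 7.11 to 8.33, and 1 overlapped it. Near SCIRT, a long noncoding RNA, 7 peaks had 2.75 to 6.84 and 4.10 to 6.02, and 6 overlapped it. The SCIRT region also held 10 butyrate peaks with no control peak and the SYNPO region 3, and the other 4 of these 6 regions held 0.

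**Figure D5:**
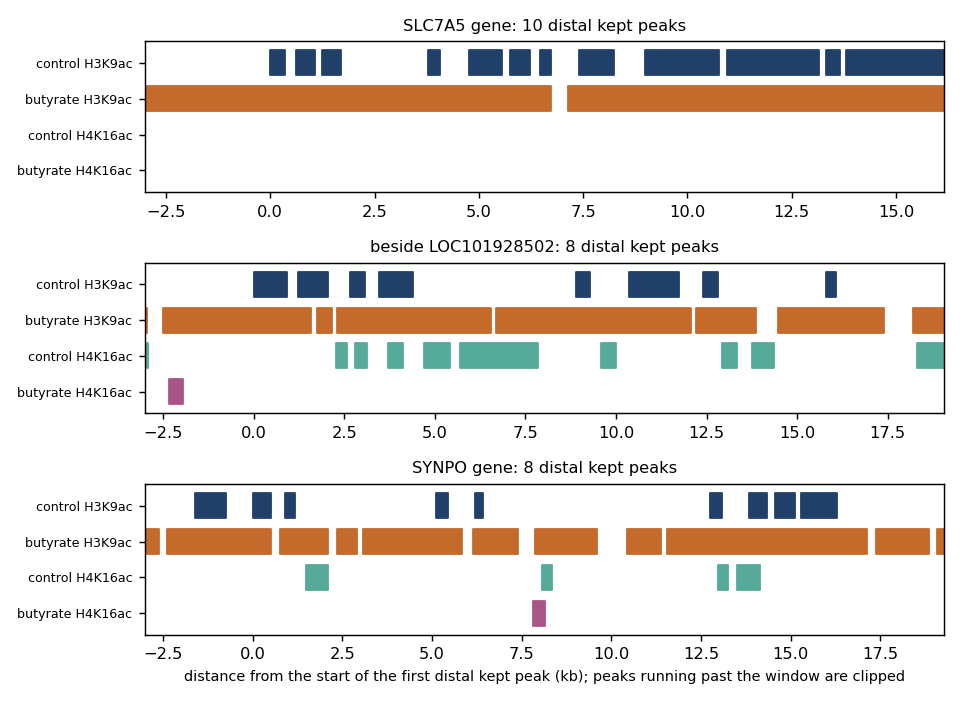
Peaks of 4 libraries (rows) over the 3 largest groups of distal kept peaks, in kb from the start of the first (x axis), with bars drawn to scale and other control peaks of the window included. In SLC7A5 the 10 control H3K9ac peaks lie under 2 wide butyrate peaks, and H4K16ac is seen in the other 2 groups.

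By the authors' closest start, 1074 peaks had a gene with a symbol, and these were 688 genes, of which 447 had 1 peak and 85 had 3 or more. CIC, EEIG1 and BCOR had 7 each, CDKN2C, DNAJB12 and ERGIC1 had 6, and 9 genes had 5, of which BMP8A and NNMT are described. Several names changed with RefSeq starts. The 7 BCOR peaks, in intron 1 of this gene of a BCL6 corepressor, lay 22472 to 79641 bp from the authors' start, but 1 covered a RefSeq start of BCOR, with folds of 5.69 and 3.90. The strongest BCOR peak had 6.25 and 8.36. Of the EEIG1 peaks, 1 covered an EEIG1 start, with folds of 6.50 and 6.31, and another 230 bp away had 6.50 and 3.30. All 5 peaks given to BMP8A, a bone morphogenetic protein, lay inside MACF1, a cytoskeletal linker gene, and 1 was 42 bp from a MACF1 start (folds 5.12 and 5.75). The 7 CIC peaks all lay within 4048 bp of a RefSeq start of CIC.

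For other genes the distance was kept or could not be checked. The 6 DNAJB12 peaks, near this cochaperone gene, were 18615 to 34717 bp from its RefSeq start, 3 overlapped control H4K16ac, and their folds ran from 3.46 to 5.62 in control and 5.06 to 7.48 with butyrate. The 5 peaks in NNMT, the nicotinamide N-methyltransferase gene, lay 22636 to 46631 bp from the authors' start. The closest RefSeq start used was that of LOC101928940, 75350 bp or more away, so the NNMT distance could not be checked. The widest of them, 4576 bp, had folds of 8.00 and 7.78. The 6 peaks nearest ERGIC1, a gene of the secretory pathway, were all narrow, 232 to 624 bp, with folds of 2.60 to 4.62 in control and 2.69 to 5.52 with butyrate. Their closest RefSeq start used was that of RPL26L1, 54190 bp or more away, so the ERGIC1 distance could not be checked either.

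Gene lists of the tissue were read through the closest gene. As background, 4.82% of the 14049 protein-coding genes in the authors' columns were the closest gene of at least 1 peak of the set. The lists were counted in full, although a gene outside these columns could not be a closest gene: 19 of 25 granulosa identity genes and 15 of 23 steroidogenesis genes were in them. Of 25 granulosa identity genes, 3 were: INHBB, the beta B subunit of inhibins and activins (folds 3.33 and 3.40), RUNX1, a transcription factor (2.85 and 4.56), and NR4A1, a nuclear receptor induced by gonadotropins (2.94 and 5.71). The RUNX1 and NR4A1 control peaks were weak, with a −log10 q of 1.36 and 1.95. At a control −log10 q from 1.3 to 3 the median fold ratio of the set was 1.51. The NR4A1 peak covered a RefSeq start of NR4A1, and the RUNX1 peak was 515 bp from the start of RUNX1-AS1. The INHBB peak was 52412 bp from its RefSeq start. Of 23 steroidogenesis genes, 1 was, SCARB1, the HDL receptor that takes up cholesterol (4.05 and 4.29). None of 28 genes of PPAR and lipid metabolism, nor of the 20 genes of the deacetylase and corepressor list, which does not hold BCOR, was the closest gene of a peak. With any start within 100 kb of a peak, these lists had 4 and 7 genes (14.3% and 35%), granulosa identity 6 and steroidogenesis 7, beside 21.3% of coding genes.

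By closest gene, the immediate early list had 4 of 20 genes and the adhesion list 5 of 31. With any start within 100 kb both had 9, and the TGF-beta list had 11 of 27. FOSL2, the gene of an AP-1 subunit, had 4 peaks, 268 to 383 bp wide, with folds of 2.66 to 3.91 in control and 5.14 to 6.29 with butyrate. All 4 were higher with butyrate, beside 65.3% of the whole set, and those with control folds of 2.66 and 2.67 lay under the same butyrate peak. All lay within 1641 bp of the start of a long noncoding RNA, LOC105374382 or LOC105374383. FOSB, another AP-1 subunit, had 2, at 3.78 and 5.36 and at 4.68 and 3.68. MAFK, a small Maf factor, had 1 (3.64 and 3.82). Among adhesion genes, TNS1, which encodes the focal adhesion protein tensin 1, had 3 peaks (5.13, 5.38 and 6.55) under 1 butyrate peak (6.98). TNS3, tensin 3, had 2, at 5.81 and 7.11 and at 3.05 and 4.99. ITGA5, the integrin alpha 5 chain, had a 324 bp control peak (2.67) under a 4251 bp butyrate peak (8.24), 2019 bp from a RefSeq start. This control peak was weak, with a −log10 q of 1.63. ITGB5, the integrin beta 5 chain, had 4.56 and 4.36. The ITGB5 peak was 320 bp from a RefSeq start.

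The remaining lists had 1 or 2 genes each. Of 22 Hippo genes, YAP1, the transcriptional coactivator, had a 232 bp peak in intron 2 (1.91 and 2.90), weak in control with a −log10 q of 1.35. TEAD3, its DNA-binding partner, had 2 peaks (3.21 and 4.70, 3.46 and 3.82). Of 27 TGF-beta genes, ID1, a target of BMP signalling, had a 2112 bp peak (5.98 and 8.50) with control H4K16ac, and SMAD2, a signal transducer, had 3.24 and 5.08. Of 25 inflammatory genes, IL1R1, the interleukin-1 receptor, had 4.15 and 3.51, and SOCS3, a cytokine signalling inhibitor, had 2 peaks (3.89 and 3.35) under 1 butyrate peak (5.75). The IL1R1 peak was 29 bp from a RefSeq start of IL1R1. Of 26 ribosomal protein genes, RPS3 had 1 (4.88 and 4.10).

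Markers of cell types gave few peaks, and some went to another gene by RefSeq. Of 8 granulosa markers INHBB was a closest gene, of 9 epithelial markers KRT8 and KRT18, of 9 oocyte markers DDX4 and of 9 blood and immune markers CSF1R. Theca, endothelial and neuron markers had 0 of 10, 0 of 8 and 0 of 9. The 2 peaks given to DDX4 lay 67 and 102 bp from the start of SLC38A9, a lysosomal amino acid transporter, with folds of 5.77 and 5.13 and of 6.72 and 3.94. The CSF1R peak lay in exon 10 of PDGFRB, a growth factor receptor gene (4.62 and 5.32). The KRT18 peak, 1307 bp wide with control H4K16ac, had 7.58 and 8.39, and the KRT8 peak had 3.35 and 6.65. The KRT8 peak was 305 bp from a RefSeq start of KRT8. No RefSeq start of KRT18 was used, so the KRT18 distance could not be checked. At the starts themselves, 3 of 7 granulosa markers that could be placed had an H3K9ac peak in both conditions, FOXL2, INHA and INHBB, and FSHR, AMH, CYP19A1 and NR5A1 had none in either. In control, starts with a peak numbered 1 of 3 for theca, 2 of 8 for oocyte, 1 of 5 for immune, 0 of 4 for endothelial, 2 of 3 for epithelial and 2 of 8 for neuron markers. With butyrate the counts were 1, 2, 3, 1, 3 and 4 in the same order. Over all 27195 genes with a RefSeq start used, 41.9% had a peak within 1 kb in control and 50.2% with butyrate.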

How the data were processed

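Per the submitters' processing notes, CASAVA 1.7 and MACS2 2.1.0 were used and the build was hg19 (GRCh37). For the aligner and filters, nothing is given in the sources used here. The authors deposited 1 MACS2 narrow peak list per library with Ensembl annotation columns, in which fold is the ratio of the summit's pileup to its local background, and the −log10 p and −log10 q values and score are those of MACS2. These fold, p and q values are the authors' own and describe, rank and filter peaks. Per the file headers, the distance is that from the peak middle to the closest gene start. Of 11373 gene starts in the lists that matched RefSeq GRCh38.p14, 87.5% lay within 1 kb and 99.5% within 100 kb (median 42 bp), so positions are read as GRCh38, with 1 added to starts. The remaining 690 starts over 10 kb away (6.07%) stay as the authors gave them.

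Rows that overlapped were merged, and a merged peak took the highest fold and q of its rows. Where a control peak overlapped several butyrate peaks, their widths were summed and their highest fold was taken. The butyrate fold can therefore come from a summit outside the control peak. Pileup and background were recovered from the deposited fold and p of 100% of H3K9ac rows (within 0.001 of −log10 p), after tests on simulated data. The lowest background, 2.09 fragments in control and 2.73 with butyrate, scaled the pileups. It corresponds to 24.3 M and 29.4 M reads if the genome size was 2.70 Gb. RefSeq distances used 34961 starts on 22 chromosomes, measured from the peak edge, and 72 peaks on another chromosome were not placed. Of the lists, 6 of 8 samples entered (input not analysed here). Intervals are exact (Clopper-Pearson, 95%) and cover counting only. Python 3.11.15, pandas 2.3.3 and SciPy 1.17.1 were used.

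The members and gene lists were chosen with earlier results of these data known. Named peaks are the 6 highest folds per library, the 6 widest, the 4 largest and smallest width ratios (of at least 400 bp), 8 genes and 6 groups with most peaks, up to 3 genes per list, 4 peaks with H4K16ac in both conditions, 2 at each side of the distance limit and 6 on RefSeq starts. Further list members and strong peaks distal by both annotations were added after their values were seen. Some items the rule takes are not reported here. Alternatives were another distance limit, overlap, strength, list length, start annotation, H4K16ac limit and group gap.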

Additional observations from a re-analysis of the deposited data

How the results depend on the processing

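No paired analysis was possible because each condition and antibody has 1 library. The number of distal kept peaks was 3527 with a distance above 5 kb and 1190 above 20 kb, 3416 with RefSeq distances, and 1182 with a −log10 q of at least 5 in both lists. The share of distal control peaks kept was 83.6% when 50% of the shorter peak had to overlap, 91.3% at a −log10 q of at least 5, 89.0% with RefSeq distances and 70.7% with equal numbers of top peaks. At a −log10 q of at least 5 the median width was 780 bp, the width ratio 1.91, the fold ratio 1.01, the control H4K16ac overlap 23.1% and the share with a host gene 36.8%. With H4K16ac peaks of a q of 0.05 or less, the overlap was 12.3% in control and 0.0867% with butyrate. The following alternatives were chosen after seeing the data. For peaks also over 10 kb from RefSeq starts, the median width was 404 bp, the width ratio 2.61, the fold ratio 1.20, the H4K16ac overlap 23.1%, the share with a host gene 50.5% and the number of groups of 3 or more 86. In a 400 bp summit window the control H4K16ac overlap was 15.7%. Without shared butyrate peaks the width ratio was 1.88 and the fold ratio 1.09. The median ratio of scaled pileup was 1.05 at the strongest butyrate summit and 0.958 at the nearest one, so its direction turned. Of 17 gene lists, 16 rose in count when any start within 100 kb was used, and 21.3% of coding genes then counted. The cause of these shifts was not tested.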

Other observations

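Peaks that became narrower with butyrate were the exception in the set. The 4 smallest width ratios among peaks of at least 400 bp were 0.337 at chr18:79069421-79070904, 27 bp from a start of ATP9B, a membrane flippase gene, 0.371 at chr6:144215608-144216457, 0.374 in intron 12 of NCOA7, a nuclear receptor coactivator gene, and 0.400 in MACF1. The ATP9B peak went from 1484 to 500 bp and from a fold of 5.42 to 3.82. In all, 198 peaks (8.58%) were narrower with butyrate, beside 14.8% of kept peaks near a start.

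LMNA, the gene of the nuclear lamins A and C, had 5 peaks in the set, chosen here after their values were seen. Their folds were 4.02, 5.88, 3.19, 3.0 and 5.14 in control, and the butyrate peaks over them had 7.83, 5.44 and 7.29. The ratios of butyrate to control fold ran from 1.33 to 2.43 over these 3 butyrate peaks, beside 65.3% of the set with a higher fold with butyrate. Of the 5, 2 lay 1832 and 2467 bp from a RefSeq start of LMNA, and none overlapped H4K16ac in control or with butyrate.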
